A study of Mus musculus with 14 samples.

Results

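This report describes how the livers of mice that lost lamin A and lamin C in hepatocytes differed from wild-type livers on ordinary chow. It rests on 5 of the 14 arrays of the series, chosen by genotype and diet: 3 arrays labelled LMNA flx/flx; Alb-cre+ (KO; arrays H1, H2 and I1) and 2 labelled LMNA +/+; Alb-cre+ (WT; arrays G1 and N1). All mice were C57BL/6 males that had spent 14 weeks on normal chow, and each array held liver RNA of 1 mouse. Both groups carried Alb-cre, which makes Cre recombinase under the albumin promoter. In KO mice the floxed alleles are therefore cut in hepatocytes, while liver cells in which that promoter was never active keep Lmna. The KO mice were 38.9 weeks old and the WT mice 27 (G1) and 24.6 (N1), a gap of 11.9 to 14.3 weeks, and the effect of age cannot be told apart from that of genotype. The other 9 arrays served only to estimate the spread and for values set beside these. They are 3 chow livers with 1 floxed and 1 wild-type copy (LMNA flx/+; Alb-cre+, called HET; arrays F1, F2 and P1; 24 to 26.4 weeks), and 3 HET (30 to 30.4 weeks old) and 3 KO livers (35.3 weeks) after 14 weeks on a Surwit high fat diet with sugar in the drinking water (HFD).

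Lamin A and lamin C are made from the same gene, Lmna, and with the B-type lamins they form the nuclear lamina, the protein meshwork under the inner nuclear membrane. The lamina carries the shape and stiffness of the nucleus and tethers silent chromatin to its edge. In liver, hepatocytes make up most of the tissue and most of its RNA, and they hold the enzymes of lipid, drug and steroid metabolism. Several of these are made at different levels in males and females under the pattern of growth hormone release. Interferons are secreted proteins that signal through JAK kinases to transcription factors that bind interferon-stimulated response elements in promoters and raise a large set of antiviral genes.

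Values are log2 intensities after RMA, so a difference of 1 is a doubling. A change is the KO mean minus the WT mean, with ± its standard error from limma, and a gene is called at a Benjamini-Hochberg adjusted p under 0.05 over the 22180 genes tested. The array median lay between 2.22 and 2.28 on the 5 arrays. Values within 1 of it are called dim here, because a probe set at that level may hold little signal of its gene. The tissue had the levels of liver: 10 hepatocyte markers, among them Alb, Ttr and Apoa1, averaged 12.12 on both WT arrays and 11.99 to 12.01 on the KO arrays, and none of them was called. Markers of pancreas and fat, which can be caught in a liver biopsy, averaged under the array median on every array. In bulk tissue fewer cells of a type and less RNA per cell cannot be told apart.

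The targeted gene was lower in all 3 KO livers. Lmna read 4.5 (G1) and 4.43 (N1) in WT and 4.09 (H1), 3.78 (H2) and 3.67 (I1) in KO livers. The groups did not overlap, and the change was -0.62 ± 0.14 (adjusted p = 0.0393), a level 1.54-fold lower. Lmna was read by 1 probe set for the whole gene, and cells in which the albumin promoter was never active still carry the gene. The call was lost without any 1 of 11 arrays, H2, I1, G1 and N1 among them (adjusted p 0.0513 to 0.190), and with only the 5 arrays fitted (0.205). Lmnb1 and Lmnb2, the B-type lamins, had changes of 0.22 ± 0.22 (adjusted p = 0.806) and 0.24 (adjusted p = 0.807). Between KO and HET livers on HFD none of the 3 lamins, Lmna included, was called (median -0.06). Of the 13 lamina partners measured, such as emerin and the lamin B receptor, none was called, with a median change of 0.09, which turned to -0.04 when arrays were centred on their medians.

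In all, 367 genes differed between KO and WT livers on chow, 1.65% of those tested: 276 were higher in KO (1.24%) and 91 lower (0.410%). The rises were the larger: 202 genes rose and 46 fell at least 2-fold, and 21 rose and 6 fell at least 8-fold. The median change over all genes was 0.0. At an unadjusted p under 0.05 there were 2611 genes. No called gene had overlapping groups, while 28.7% of all genes also had groups that did not overlap. Groups said below to stand apart therefore add nothing to the call of a gene. Centring each array on its median moved all KO minus WT changes by -0.13, and the share of calls that were rises went from 75.2% to 59.2%. Counts of list members with a change above 0, given below, are before centring and could be lower after it. Of the rises, 65 began from dim values on both WT arrays, and of the falls 19 ended at dim values on all KO arrays, so their size is uncertain. Array N1 weighed most: 154 genes were called without it, 232 without G1, 244 without H2, 213 without I1 and 411 without H1. Fitting only the 5 arrays gave 162 calls.

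**Figure D1:**
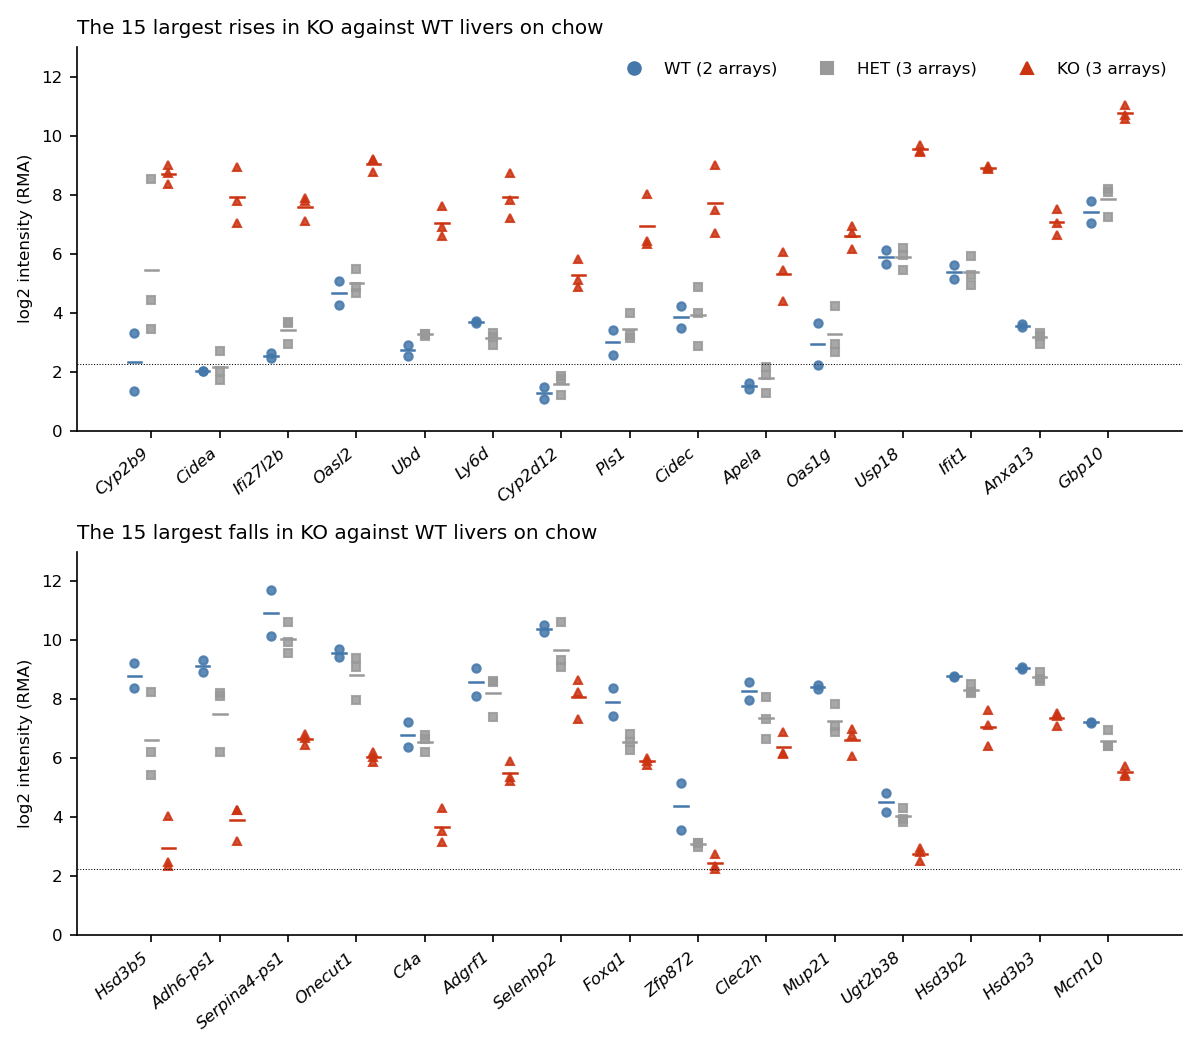
Log2 intensity (RMA) of the 15 genes with the largest rises and the 15 with the largest falls among the called genes, in each chow liver; circles are WT, squares HET and triangles KO arrays, and the dotted line is the mean array median. Cidea stood at 2.02 and 2.03 in WT and at 7.03 to 8.93 in KO livers, and Hsd3b5 at 8.39 and 9.21 in WT and 2.35 to 4.03 in KO livers.

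The broadest change was in genes of the interferon response. Of 60 measured genes of this pathway 36 rose and none fell, with a median change of 1.2, and 53 had a change above 0. The genes that rose were those that interferon induces, while the interferons and their receptors were not called. Of the 36 rises, 21 held in every fit that left out 1 array and 20 under every alternative tried. The count was 26 without G1, 23 without N1 and 29 with only the 5 arrays fitted.

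The promoters of 4 genes of this group are shown, since the interferon-stimulated response element can be read in them. Each is the 250 bases before the gene's start (RefSeq, mouse build GRCm38.p6), written along the gene's strand. Capitals mark exact matches, on either strand, to GAAA, any 2 bases and GAAAC. In the Ifit1 window both matches lie on the opposite strand and so read as GTTTCACTTTC and GTTTCAGTTTC. In the Isg15 window GAAAAGGAAAC and GAAACCGAAAC overlap. The regions are chr5:120887614-120887863 on the minus strand for Oas1g, chr19:34640639-34640888 on the plus strand for Ifit1, chr4:156200819-156201068 on the minus strand for Isg15 and chr8:71537473-71537722 on the minus strand for Bst2.
Oas1g: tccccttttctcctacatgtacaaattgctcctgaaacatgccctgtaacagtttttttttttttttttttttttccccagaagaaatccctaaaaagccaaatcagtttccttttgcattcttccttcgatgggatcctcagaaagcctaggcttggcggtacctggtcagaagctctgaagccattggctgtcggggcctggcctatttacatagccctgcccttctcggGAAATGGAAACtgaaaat
Ifit1: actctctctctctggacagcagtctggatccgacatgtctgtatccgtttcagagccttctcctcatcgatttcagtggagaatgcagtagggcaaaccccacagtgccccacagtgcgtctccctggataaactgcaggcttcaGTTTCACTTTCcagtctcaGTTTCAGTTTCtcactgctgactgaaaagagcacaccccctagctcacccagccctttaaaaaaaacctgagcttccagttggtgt
Isg15: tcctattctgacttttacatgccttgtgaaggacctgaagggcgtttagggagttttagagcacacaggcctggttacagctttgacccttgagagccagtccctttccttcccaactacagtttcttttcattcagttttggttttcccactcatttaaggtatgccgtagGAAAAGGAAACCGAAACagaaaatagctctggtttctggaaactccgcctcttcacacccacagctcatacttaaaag
Bst2: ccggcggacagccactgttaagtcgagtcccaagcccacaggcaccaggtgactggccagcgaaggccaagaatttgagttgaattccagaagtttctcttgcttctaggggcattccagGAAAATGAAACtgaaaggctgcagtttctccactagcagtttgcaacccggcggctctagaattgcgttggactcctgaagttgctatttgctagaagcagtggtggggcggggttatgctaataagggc
The element was found in 0.765% of the 16990 promoters of tested genes (130), in 19 of the 221 promoters of called rises (8.60%) and in none of 66 promoters of called falls. Among interferon response genes it was in 6 of 24 promoters of those called (25%) and in 4 of 21 of those not called (19%). A match describes letters only. The Irf7 and Oasl2 windows held none.

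The ligands ranged from dim values to 4.78 (Ifnl2 on G1) in the 5 livers, and none was called. Ifnb1, interferon beta, read 1.34 (G1) and 1.19 (N1) in WT and 1.18, 1.40 and 1.13 in KO livers (H1, H2, I1), all dim, with a change of -0.03 ± 0.16 (adjusted p = 0.980). The median change of the 5 ligands was -0.18. None of the 5 receptors was called (median 0.29): Ifnar1, a chain of the type I receptor, was well above the median at 8.70 to 8.82 in all 5 livers, and its change was 0.04 ± 0.10 (adjusted p = 0.950).

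Among the 9 sensors and adaptors, 5 rose. Zbp1, which binds Z-form nucleic acid, read 5.20 and 5.44 in WT and 7.95, 8.19 and 8.39 in KO livers. All KO values lay above both WT values by more than 2 log2 units, and the change was 2.85 ± 0.31 (adjusted p = 0.000373). The cytosolic RNA sensors Dhx58 (2.45 ± 0.19, adjusted p = 1.96e-05), Ifih1 (1.53 ± 0.16, adjusted p = 0.000230) and Ddx58 (1.51 ± 0.15, adjusted p = 0.000224) rose as well. Tlr3, the endosomal RNA receptor, rose by 1.13 (adjusted p = 0.0145), a call lost without G1, N1, H2 or I1 (0.0507 to 0.108). The DNA sensor Cgas was dim in all 5 livers (change 0.23, adjusted p = 0.731), and its partner Sting1 changed by 0.60 (adjusted p = 0.293).

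Of 6 transcription factors 3 rose, all of them parts of the feedback by which interferon signalling raises its own factors. Irf7 read 6.68 and 7.44 in WT livers, 9.96, 10.21 and 10.17 in KO livers and 6.83, 6.91 and 7.37 in HET livers (F1, F2, P1). The KO livers stood apart from all 5 chow livers with a wild-type copy, which overlapped each other, and the change was 3.05 ± 0.21 (adjusted p = 7.16e-06). Irf9 rose by 1.24 ± 0.15 (adjusted p = 0.000799; 0.0549 with only the 5 arrays fitted). Stat2 rose by 0.72 ± 0.13 (adjusted p = 0.0128), and this call did not hold without G1, N1 or I1 (0.0531 to 0.108), after centring (0.0670) or with only the 5 arrays fitted (0.0702), where Irf7 alone of the 3 was called. Irf1, the factor more tied to interferon gamma, had overlapping groups and a change of 0.41 (adjusted p = 0.592).

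All 6 measured genes of the OAS family, which make the 2-5A messenger that activates RNase L or are relatives of those enzymes, rose (median 2.28). Oasl2 read 4.25 and 5.07 in WT and 8.77, 9.17 and 9.20 in KO livers, 20.9-fold higher (4.39 ± 0.31, adjusted p = 8.03e-06). Oas1g read 2.23 and 3.64 in WT, dim on G1, and 6.16, 6.95 and 6.71 in KO livers (3.67 ± 0.53, adjusted p = 0.00268). The lowest KO value exceeded the highest WT value in both genes, as in every called rise. Oas3 was the least certain, called at an adjusted p of 0.0498 and lost without any 1 of 11 arrays (0.0513 to 0.275), and Oas2 was lost without G1 (0.0535).

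The ISG15 system attaches the ubiquitin-like protein ISG15 to other proteins, and all 5 of its measured genes rose (median 2.29). Isg15 itself read 5.42 and 5.20 in WT and 8.24, 8.38 and 8.22 in KO livers. The 3 KO values were close to each other and far above WT (2.97 ± 0.19, adjusted p = 4.33e-06). Usp18, which removes ISG15 and damps the receptor, read 5.66 and 6.11 in WT and 9.48, 9.44 and 9.67 in KO livers, 12.5-fold higher (3.65 ± 0.22, adjusted p = 4.33e-06). The ligase Herc6 rose by 2.29 ± 0.24 (adjusted p = 0.000283). The activating enzyme Uba7 (1.42, adjusted p = 0.0224) and the conjugating enzyme Ube2l6 (1.17, adjusted p = 0.00589) rose too. Leaving out N1 ended both calls (0.115 and 0.107), and for Uba7 so did leaving out G1, H2 or I1 (0.0848 to 0.147).

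Of the 6 IFIT genes, whose products bind viral RNA ends, 2 rose (median 1.37). Ifit1 read 5.15 and 5.61 in WT and 8.95, 8.90 and 8.88 in KO livers, a rise of 3.53 ± 0.30 (adjusted p = 4.10e-05). Its KO values nearly coincided. Ifit3 had all KO values (5.78, 5.52 and 4.39) above WT (3.42 and 3.41) but I1 was low and the change of 1.82 did not pass (adjusted p = 0.0637).

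Among 18 other effectors 15 rose (median 1.58), and 8 were called without N1. Ifi27l2b, a small membrane protein of the ISG12 family, read 2.45 and 2.62 in WT, both dim, and 7.11, 7.87 and 7.79 in KO livers. It was the third largest rise of the named genes, 33.3-fold (5.06 ± 0.28, adjusted p = 3.19e-06), and HET livers at 3.67, 2.93 and 3.66 lay nearer WT than KO. Bst2, which tethers budding virions to the cell, read 9.39 and 9.40 in WT, 11.20, 11.27 and 11.28 in KO and 10.09, 10.06 and 10.09 in HET livers. The 3 genotypes formed separate levels here; KO minus WT was 1.86 ± 0.13 (adjusted p = 8.03e-06) and HET minus WT was not called. Xaf1, a pro-apoptotic interferon-induced protein, rose by 2.91 ± 0.18 (adjusted p = 4.33e-06). Mx1 rose by 1.54 ± 0.19 (adjusted p = 0.000966) from dim WT values; the Mx1 of C57BL/6 mice carries a deletion and makes no working protein. Rsad2 rose by 1.76 ± 0.32 (adjusted p = 0.0140), a call lost without N1, H2 or I1 (0.0519 to 0.180).

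**Figure D2:**
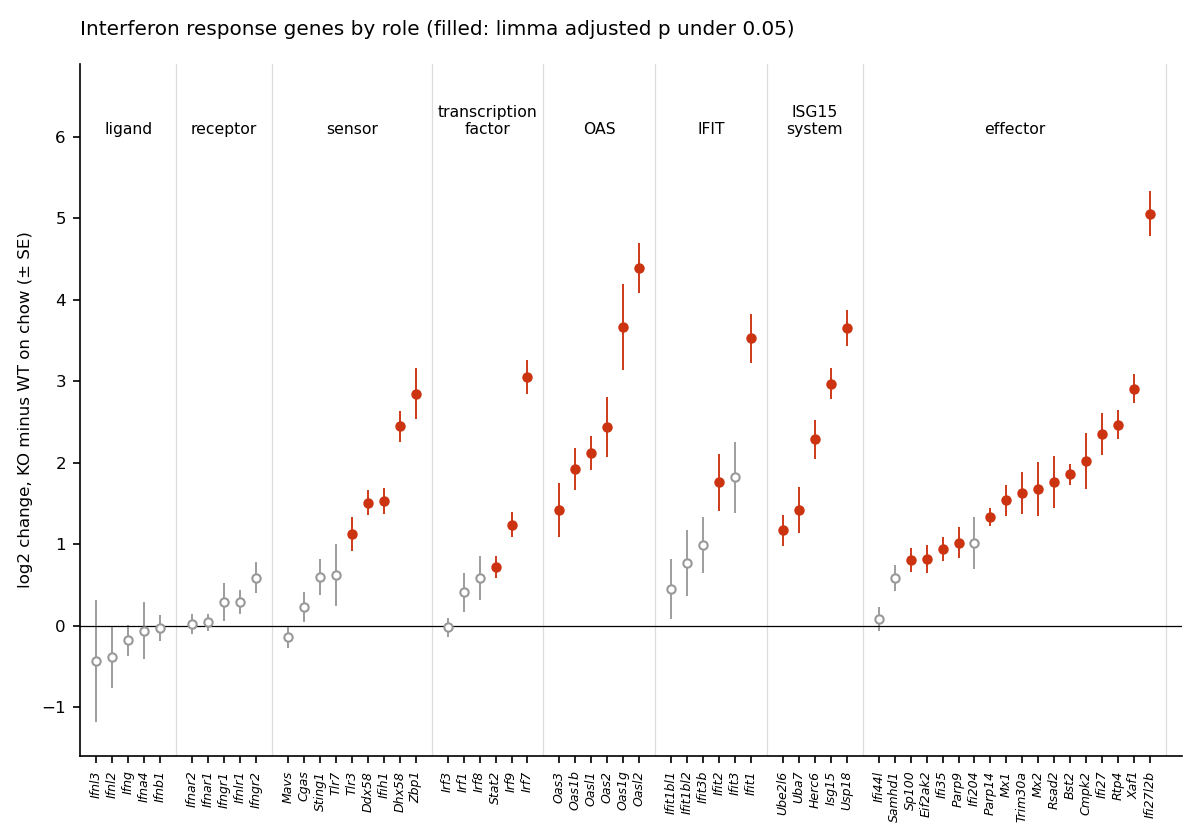
Log2 change KO minus WT on chow, with its standard error, for the 60 interferon response genes grouped by role; filled points were called by limma at an adjusted p under 0.05. No ligand and no receptor was called, while all 6 OAS genes, all 5 genes of the ISG15 system and 15 of 18 effectors rose.

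Genes that interferon gamma also induces moved with them. Of 14 interferon-inducible GTPases, which attack the vacuoles of intracellular microbes, 7 rose and none fell (median 1.10). Gbp10 read 7.03 and 7.79 in WT and 10.55, 11.04 and 10.69 in KO livers, 10.2-fold higher (3.35 ± 0.43, adjusted p = 0.00123). Gbp3 (3.03 ± 0.28, adjusted p = 9.43e-05), Gbp9 (2.03 ± 0.18, adjusted p = 6.57e-05) and Gbp7 (1.58 ± 0.20, adjusted p = 0.000966) rose, as did Irgm1 (1.3 ± 0.19, adjusted p = 0.00253). The array reads several GBP genes that are close relatives, and their values may share signal. Gbp2b was not called (-0.45). All 4 GBP calls held under every alternative.

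Of 20 genes that cut and present peptides 8 rose, and all 20 had a change above 0 (median 0.56). Ubd encodes FAT10, a ubiquitin-like tag for the proteasome induced by interferon gamma and TNF. It read 2.91 and 2.54 in WT, both dim, and 6.58, 6.89 and 7.62 in KO livers, 19.7-fold higher (4.30 ± 0.40, adjusted p = 9.43e-05). The immunoproteasome subunit Psmb8 (1.28 ± 0.19, adjusted p = 0.00316), the peptide transporter Tap1 (1.21 ± 0.18, adjusted p = 0.00312) and the class I gene H2-T23 (1.08 ± 0.15, adjusted p = 0.00200) rose. With only the 5 arrays fitted the calls of Tap1 (adjusted p = 0.0584) and H2-T23 (adjusted p = 0.0548) were lost. None of 4 class II genes, which mark antigen-presenting cells, was called (median 0.36). The count of 8 was 4 without G1 or without I1 and 3 with only the 5 arrays fitted.

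Lipid droplet genes held some of the largest single rises. Cidea and Cidec encode proteins of the CIDE family that sit on lipid droplets and let small droplets pass their lipid to larger ones; both are scarce in lean liver and rise in fatty liver. Cidea read 2.02 and 2.03 in WT, at the array median, and 7.79, 7.03 and 8.93 in KO livers, with HET livers at 1.72, 2.03 and 2.71. It was 59.3-fold higher in KO (5.89 ± 0.45, adjusted p = 1.57e-05). Cidec read 3.48 and 4.22 in WT and 7.48, 6.70 and 8.99 in KO livers, 14.7-fold higher (3.87 ± 0.64, adjusted p = 0.00720); its call was lost without G1 (0.0763) and with only the 5 arrays fitted (0.0652). The order of the KO livers was the same in both genes, with I1 highest and H2 lowest.

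The rest of the lipid genes moved less. Of 34 droplet, uptake and triglyceride genes 5 rose and none fell (median 0.21); 3 were called without G1 and 2 with only the 5 arrays fitted. Cd36, which takes up fatty acids, read 8.98 and 8.93 in WT and 10.25, 10.41 and 10.83 in KO livers (1.54 ± 0.16, adjusted p = 0.000297), with no overlap. Mogat1, an enzyme of triglyceride synthesis, rose by 2.12 ± 0.37 (adjusted p = 0.0103) from dim WT values and was lost without G1 (0.107). Plin2, the droplet coat protein of hepatocytes, rose by 0.71 ± 0.15 (adjusted p = 0.0314), a call lost without N1, H2 or I1 (0.103 to 0.329) and after centring (0.0784). Plin4 changed by 0.66 (adjusted p = 0.705), Plin5 by 0.74 (adjusted p = 0.249) and Pparg, the receptor that drives several of these genes, by 0.85 (adjusted p = 0.577).

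None of 18 fatty acid synthesis genes was called (median -0.04). Fasn, fatty acid synthase, spanned 10.11 to 10.28 in WT and 9.88 to 10.58 in KO livers (0.11 ± 0.28, adjusted p = 0.947), and Scd1, the stearoyl desaturase, overlapped in the same way. Of 22 genes of PPAR alpha and fatty acid oxidation 1 rose, the peroxisomal enzyme Ehhadh (0.75 ± 0.14, adjusted p = 0.0127; 0.152 without N1). The fasting hormone Fgf21 changed by 1.95 (adjusted p = 0.0842). Of 18 sterol genes none rose, and 1 fell: Stard4, a carrier of cholesterol within the cell (-0.92 ± 0.21, adjusted p = 0.0446), which was lost without any 1 of 10 arrays (0.0514 to 0.276).

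The largest falls included genes that male livers express more than female livers. Of 22 male-biased genes 6 fell and none rose (median -0.35). Hsd3b5, a male-biased steroid dehydrogenase, read 8.39 and 9.21 in WT and 2.47, 4.03 and 2.35 in KO livers, dim on H1 and I1. It was 57.7-fold lower (-5.85 ± 0.78, adjusted p = 0.00150), and the call held under every alternative. HET livers lay between at 6.20, 5.44 and 8.25, all above the KO values and below the WT values. Its relatives Hsd3b3 (-1.70 ± 0.20, adjusted p = 0.000689) and Hsd3b2 (-1.72 ± 0.36, adjusted p = 0.0282) fell too; Hsd3b2 was lost without G1, N1, H1 or I1 (0.0526 to 0.188), and the genes are similar enough to share signal. Selenbp2, a selenium-binding protein, read 10.26 and 10.50 in WT and 7.34, 8.66 and 8.25 in KO livers (-2.30 ± 0.52, adjusted p = 0.0451). The groups stood clear of each other, but the call was lost without any 1 of 8 arrays (0.0524 to 0.270).

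The major urinary protein Mup21 fell by 1.79 on the log2 scale (adjusted p = 0.0224) and the antiprotease Serpina1e by 0.93 (adjusted p = 0.0291), both male-biased and both lost without G1, N1 or I1 (0.0862 to 0.179). Serpina1e was also lost without H1 (0.0533) or H2 (0.0637). Ugt2b38, a glucuronosyltransferase (-1.74 ± 0.31, adjusted p = 0.0127), was lost without N1 (0.172), and Cspg5, a proteoglycan (-1.57 ± 0.26, adjusted p = 0.00642), without G1 (0.0763). Without G1, and likewise without N1, 2 male-biased genes were called in place of 6. Slco1a1, an organic anion transporter of male liver, changed by -1.86 (adjusted p = 0.181), and Cyp7b1, an oxysterol hydroxylase, by -1.27 (adjusted p = 0.0700).

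Of 32 female-biased genes 3 rose and none fell (median 0.34), and 1 was called without G1, N1 or I1. Cyp2b9, a cytochrome of female liver, had the largest change of the comparison and the least even values: 1.34 and 3.32 in WT, 8.99, 8.74 and 8.35 in KO and 3.43, 4.42 and 8.51 in HET livers. The WT livers differed by nearly 2 log2 units, and the HET liver P1 was as high as the KO livers. The change was 6.37 ± 1.38 (adjusted p = 0.0357) and was lost without any 1 of 7 arrays (0.0508 to 0.232). Its neighbour Cyp2b13 had the same pattern (2.11 and 2.13 in WT, 6.70, 6.58 and 5.99 in KO, 7.57 in P1) and was not called (4.31 ± 1.16, adjusted p = 0.103). The other 2 were Cd36, which is also counted among the lipid genes, and the growth factor Gas6 (1.03 ± 0.21, adjusted p = 0.0241; 0.0754 to 0.140 without G1, N1 or I1).

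Growth hormone acts on liver through its receptor, JAK2 and STAT5, and raises Igf1 and the feedback proteins Cish and Socs2. Of 18 genes of this axis 3 fell (median -0.23), and 1 was called without N1, H2 or I1 or with only the 5 arrays fitted. Igf1 read 10.15 and 10.28 in WT and 9.73, 9.54 and 9.42 in KO livers (-0.65 ± 0.14, adjusted p = 0.0320). Igfals, the carrier that keeps IGF1 in blood, fell by 0.86 on the log2 scale (adjusted p = 0.0355). Both had groups that did not overlap, and both calls were lost without G1, N1, H2 or I1 (0.0966 to 0.277), Igfals also without F2 or the HFD arrays A2 or C2 (0.0533 at the lowest). Cish (-1.68, adjusted p = 0.0757), Socs2 (-1.85, adjusted p = 0.181) and the receptor Ghr (-0.38, adjusted p = 0.335) were not called. The 4 feedback genes measured had a median change of -1.13. The regulators of sex-biased expression Bcl6 (1.62, adjusted p = 0.407) and Cux2 (0.13) were not called either.

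Onecut1, also known as HNF6, is a hepatocyte transcription factor that growth hormone regulates, and it fell the most among the factors. It read 9.42 and 9.69 in WT, 6.22, 6.04 and 5.87 in KO and 9.10, 9.41 and 7.98 in HET livers. The KO values lay far under all others, 11.4-fold below WT (-3.51 ± 0.45, adjusted p = 0.00123), and the call held under every alternative. Foxq1, a forkhead factor, read 7.43 and 8.39 in WT and 5.89, 6.02 and 5.77 in KO livers (-2.02 ± 0.35, adjusted p = 0.00909); it was lost without N1 (0.144), and a dimmer second probe set changed by -0.20 (adjusted p = 0.900). Foxa1, a pioneer factor of liver, fell by 1.24 on the log2 scale (adjusted p = 0.0322; 0.0519 to 0.283 without G1, N1, H2, I1 or the HFD array C2). Of 13 hepatocyte transcription factors 3 fell (median -0.18; 1 without N1), and Hnf4a was not called (-0.01 ± 0.11, adjusted p = 0.986). None of 14 secreted hepatocyte products was called (median -0.05), and Alb stood between 13.44 and 13.53.

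Other large falls came from genes of mixed roles. Adh6-ps1, listed as a pseudogene of the alcohol dehydrogenases, read 9.32 and 8.93 in WT and 4.25, 4.23 and 3.19 in KO livers (-5.23 ± 0.82, adjusted p = 0.00503; 0.0520 without G1). Serpina4-ps1, listed as a pseudogene of a serine protease inhibitor, read 10.13 and 11.71 in WT and 6.82, 6.68 and 6.45 in KO livers (-4.27 ± 0.55, adjusted p = 0.00123). C4a, a complement gene also called sex-limited protein for its male expression, read 6.37 and 7.23 in WT and 4.31, 3.54 and 3.15 in KO livers (-3.13 ± 0.36, adjusted p = 0.000530). In all of these, as in every called fall, the highest KO value was below the lowest WT value. Adgrf1, an adhesion-type receptor, read 9.07 and 8.09 in WT and 5.36, 5.89 and 5.22 in KO livers (-3.09 ± 0.52, adjusted p = 0.00793; 0.0943 without G1). C4a is nearly identical to C4b, so the probe set may take signal from both.

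Genes that are low or silent in adult liver were among the strongest rises. Ly6d, a surface protein of epithelial and B-lineage cells, read 3.71 and 3.64 in WT and 7.20, 7.80 and 8.73 in KO livers, 18.8-fold higher (4.23 ± 0.32, adjusted p = 1.57e-05). Apela, an embryonic peptide hormone of the apelin receptor, read 1.42 and 1.60 in WT, both dim, and 4.39, 5.43 and 6.05 in KO livers (3.78 ± 0.39, adjusted p = 0.000230). Both calls held under every alternative, and no HET value of either reached the KO range. They were the 2 of 21 fetal and tumour-associated genes that rose (median 0.32). Afp, the fetal albumin, changed by 1.08 (adjusted p = 0.166), and the tumour marker Gpc3 was dim in H1 and H2 and 4.41 in I1 (change 0.34, adjusted p = 0.907).

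Of 21 genes of gut-type epithelium 3 rose (median 0.15), all among the 9 of the brush border and its actin core. Anxa13, an annexin of intestinal membranes, read 3.61 and 3.50 in WT and 7.05, 6.62 and 7.51 in KO livers (3.50 ± 0.34, adjusted p = 0.000144). Pls1, which bundles actin in microvilli, read 3.42 and 2.57 in WT and 6.41, 6.34 and 8.01 in KO livers (3.92 ± 0.69, adjusted p = 0.0105; 0.139 without N1). Both genes were above WT in every KO liver, as were all called rises. The third, the cadherin Cdhr5, rose by 0.66 ± 0.15 and was lost without any 1 of 11 arrays (0.0565 to 0.398), so that 1 gene was called without N1. Cyp2d12, a cytochrome of the Cyp2d cluster, read 1.46 and 1.06 in WT, both dim, and 5.11, 5.82 and 4.85 in KO livers (4.0 ± 0.51, adjusted p = 0.00124). It was the 1 of 32 drug-metabolizing cytochromes and regulators that rose (median 0.23), and it belongs to a family of similar sequences. Rhbg, an ammonia transporter of pericentral hepatocytes, rose by 3.11 ± 0.37 (adjusted p = 0.000799), 1 of 21 pericentral genes; no periportal gene of 16 was called.

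NRF2 is the transcription factor that raises genes of glutathione and redox defence. All 24 of its measured targets and regulators had a change above 0, and 5 rose (median 0.36). Centring, which moved all changes by -0.13, took the smallest of these changes below 0. It left a median of 0.23, with 5 called. Slc7a11, the cystine importer, read 2.19 and 1.76 in WT, both dim, and 4.22, 5.13 and 5.94 in KO livers (3.12 ± 0.41, adjusted p = 0.00139). The KO values were spread widely but all above WT, while a second, dimmer probe set changed by 0.16 (adjusted p = 0.790). Nqo1, the quinone reductase, read 6.75 and 6.20 in WT and 7.47, 7.86 and 8.26 in KO livers (1.39 ± 0.24, adjusted p = 0.0105; 0.156 without N1). Gstm3, a glutathione transferase, rose by 1.32 ± 0.22 (adjusted p = 0.00642; 0.0867 without N1). The fourth was Abcc4. This transporter exports bile acids and nucleotides at the blood side of hepatocytes and read 5.02 and 5.72 in WT and 7.13, 7.67 and 7.85 in KO livers. It rose by 2.18 ± 0.23 (adjusted p = 0.000299), above both WT and all HET values. The last, Pgd of the pentose phosphate pathway, rose by 0.95 (adjusted p = 0.0303; 0.0842 to 0.258 without G1, N1, H2 or I1). Hmox1, heme oxygenase, was not called (0.05), nor was Nfe2l2, which encodes NRF2 (0.64, adjusted p = 0.0523). Without N1 the count was 2, and with only the 5 arrays fitted it was also 2.

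Of 40 extracellular matrix genes 8 rose and none fell (median 0.52). Lum, lumican, a proteoglycan that spaces collagen fibrils, read 4.90 and 4.82 in WT and 6.60, 6.76 and 6.73 in KO livers (1.84 ± 0.21, adjusted p = 0.000515). Its groups were tight and far apart, and the call held under every alternative. The gelatinase Mmp2 rose by 1.69 ± 0.34 (adjusted p = 0.0245) and Col6a3 by 1.21 ± 0.23 (adjusted p = 0.0170), both lost without G1, N1 or H2 and Mmp2 also without I1 (0.0697 to 0.177). All 14 collagen genes had a change above 0 (median 0.93), and 3 were called, none of them without G1. Col1a1, the main chain of scar collagen, was 5.02 and 3.83 in WT and 5.52, 5.83 and 6.55 in KO livers; these did not overlap, but the change of 1.54 was not called (adjusted p = 0.151). Of the 8 matrix calls 2 were left without G1, 2 without N1, 3 without H2, 4 without I1 and 3 with only the 5 arrays fitted.

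Markers of stellate cells, the main matrix producers of liver, did not move as a group: of 12, none rose, 1 fell, and the median was 0.01. Acta2, the actin of activated stellate cells, overlapped (4.39 and 6.44 in WT, 5.06 to 6.16 in KO). Lrat, which stores retinol in quiescent stellate cells, read 7.95 and 8.18 in WT and 6.79, 7.30 and 6.31 in KO livers (-1.27 ± 0.26, adjusted p = 0.0246); the call was lost without G1, N1, H1 or I1 (0.0543 to 0.210).

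Markers of recruited macrophages and monocytes moved with the interferon and matrix genes. Of 15, 4 rose and none fell, 14 had a change above 0 and the median was 0.99; the mean of the 15 was 3.67 and 3.39 on the WT arrays and 4.21, 4.94 and 4.75 on the KO arrays. Cx3cr1, the fractalkine receptor, read 2.40 and 2.68 in WT, both dim, and 5.43, 5.43 and 5.20 in KO livers (2.81 ± 0.19, adjusted p = 6.99e-06). Ly6c2, a marker of inflammatory monocytes that interferon also induces, read 2.36 and 1.46 in WT and 4.24, 4.88 and 5.25 in KO livers (2.88 ± 0.40, adjusted p = 0.00211). In both genes, as in every called rise, the lowest KO value was above the highest WT value. Trem2 rose by 1.31 (adjusted p = 0.0200; 0.0812 to 0.155 without G1, N1, H2 or I1) and Plac8 by 0.99 (adjusted p = 0.00223). With only the 5 arrays fitted 2 of the 4 were called, since Trem2 (0.0584) and Plac8 (0.0518) were lost.

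Resident Kupffer cells gave a different picture: of 11 markers 1 fell and none rose (median -0.11). Timd4, a receptor for dying cells on long-lived Kupffer cells, read 6.58 and 6.38 in WT and 5.02, 5.40 and 4.28 in KO livers (-1.58 ± 0.25, adjusted p = 0.00495; 0.0538 without G1 and 0.112 with only the 5 arrays). Clec4f, which is specific to Kupffer cells, was not called (0.08 ± 0.20, adjusted p = 0.944). No marker of T cells (9 measured), B cells (7), NK cells (8), dendritic cells (7), neutrophils (11), endothelium (14) or cholangiocytes (9) was called. The cholangiocyte markers had a median of 0.85 and averaged 3.16 and 2.89 on WT and 3.53, 3.48 and 4.08 on KO arrays; the other medians lay between 0.01 and 0.20. The part of such cells in the interferon, antigen and matrix rises was not tested. Of 40 chemokine, cytokine and NF-kB genes 1 rose, Relb (1.11, adjusted p = 0.0314; 0.102 to 0.182 without G1, N1, H2 or I1), with a median of 0.35.

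Of 23 p53 targets and DNA damage genes 5 rose (median 0.39), although none of these calls was kept in every fit without 1 array. Cdkn1a, the cycle inhibitor p21, read 5.02 and 4.66 in WT, 7.28, 7.28 and 9.44 in KO and 7.07, 7.06 and 4.54 in HET livers. I1 stood above the other KO livers, and HET livers F1 and F2 came close to them; the change was 3.16 ± 0.72 (adjusted p = 0.0471) and was lost without any 1 of 10 arrays (0.0616 to 0.276). Eda2r, a death receptor that p53 induces, read 2.29 and 2.04 in WT, both dim, and 3.52, 4.44 and 4.58 in KO livers (2.02 ± 0.31, adjusted p = 0.00422; 0.0649 without N1). Mdm2, which degrades p53 and is its target, was not called (0.20). The count was 1 without G1, 0 without N1 and 0 with only the 5 arrays fitted.

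Mitosis genes were low in WT livers and tended to be higher in KO livers. All 27 measured had a change above 0, 13 rose and the median was 1.11. Prc1, which crosslinks the central spindle, read 2.85 and 2.81 in WT and 4.29, 4.97 and 5.24 in KO livers (2.00 ± 0.24, adjusted p = 0.000872). Nusap1, a spindle protein, rose by 1.47 ± 0.18 (adjusted p = 0.000799), while Mki67, the usual proliferation marker, was called at 0.0489 and lost without any 1 of 13 arrays (0.0551 to 0.219). The mean over the 27 genes was 2.82 and 2.74 on the WT arrays and 3.39, 4.0 and 4.29 on H1, H2 and I1, so H1 was nearest to WT. Without H1 the number of mitosis genes called was 20, without G1 it was 7, without N1 2 and with only the 5 arrays fitted 3.

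Genes of DNA replication had smaller changes and fewer calls than mitosis genes, although 15 of 18 had a change above 0. Over all genes 1.24% were called higher and 0.410% lower. Of 18 measured, 1 rose, the licensing factor Mcm2 (1.01, adjusted p = 0.0271; 0.0607 to 0.264 without G1, N1, H2 or I1), and 1 fell, with a median of 0.24. The fall was Mcm10, a replication factor with its brightest level in WT: 7.24 and 7.19 in WT and 5.72, 5.46 and 5.41 in KO livers (-1.68 ± 0.24, adjusted p = 0.00229). Its KO values were all below WT, as for every called fall. The letters TTTGAA, the core of the cell cycle homology region of mitosis genes, were in 16.1% of all 250-base promoters on either strand. They were in 8 of 12 promoters of cell cycle genes called higher (66.7%) and in 3 of 27 of those not called (11.1%). Of the 14 cell cycle genes called higher 13 were mitosis genes, while those not called included most replication genes and all G1 genes. Whether the letters go with the call among mitosis genes alone was not tested.

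**Figure D3:**
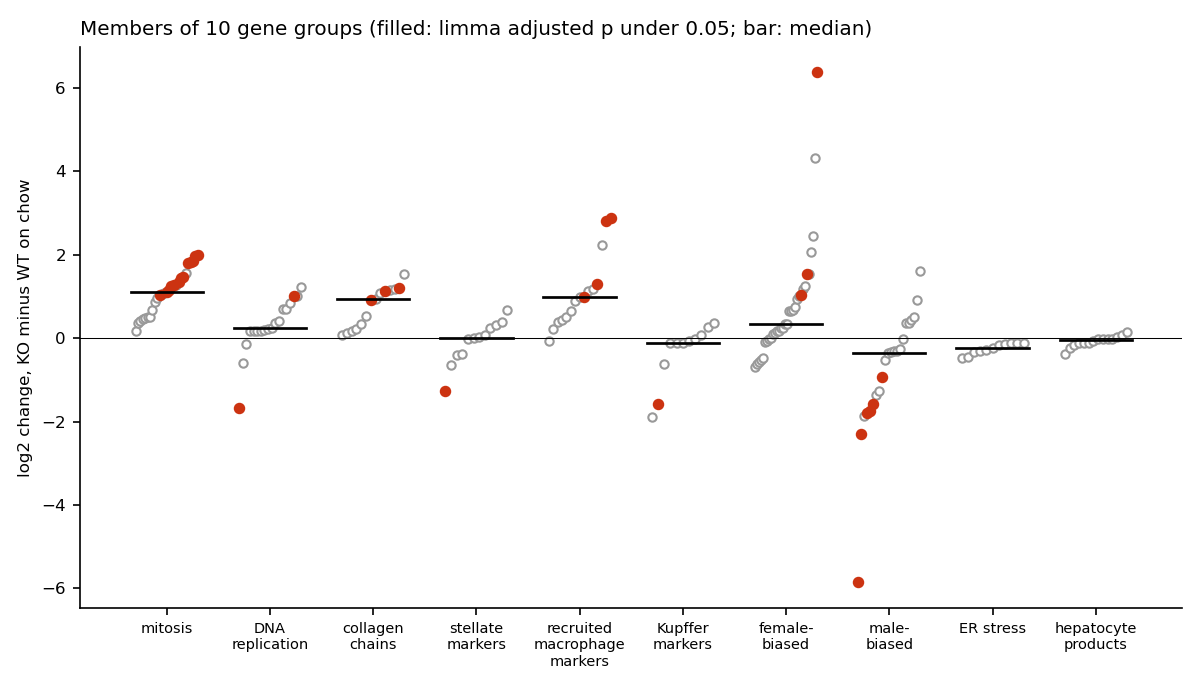
Log2 change KO minus WT on chow of each member of 10 gene groups; filled points were called by limma at an adjusted p under 0.05 and the bar is the group's median. Mitosis genes, with a median of 1.11, and collagen chains, with 0.93, had no member below 0.

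Groups known to answer to liver stress or to tension on the nucleus held at most 1 call each. With so few members, such counts do not set these groups apart from all genes, of which 1.65% were called. None of 11 endoplasmic reticulum stress genes was called, and all 11 had changes under 0 (median -0.24). Of 14 ATF4 targets, 11 had a change above 0 (median 0.56) and 1 rose, Ddit3 (0.97, adjusted p = 0.0192; 0.0668 to 0.227 without N1, H2 or I1). Of 28 targets of YAP and SRF, factors that answer to tension on the cell and nucleus, 24 had a change above 0 (median 0.28; 0.52 over the 10 YAP targets) and 1 rose (Tpm1, 0.65; adjusted p up to 0.342 without any 1 of 7 arrays, 0.0929 after centring). Of 23 acute phase proteins 1 rose, Orm2 (1.67 ± 0.25, adjusted p = 0.00403; 0.0550 without G1), and the 3 SAA genes, the sharpest inflammation readout of liver, were not called (median -0.27). No clock gene of 18 was called. Clock genes varied between livers of the same group: Arntl, which opposes Dbp through the day, was 6.48 (G1) and 4.63 (N1) in WT and 6.62 to 7.01 in KO livers, and its part in the results was not tested.

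**Figure D4:**
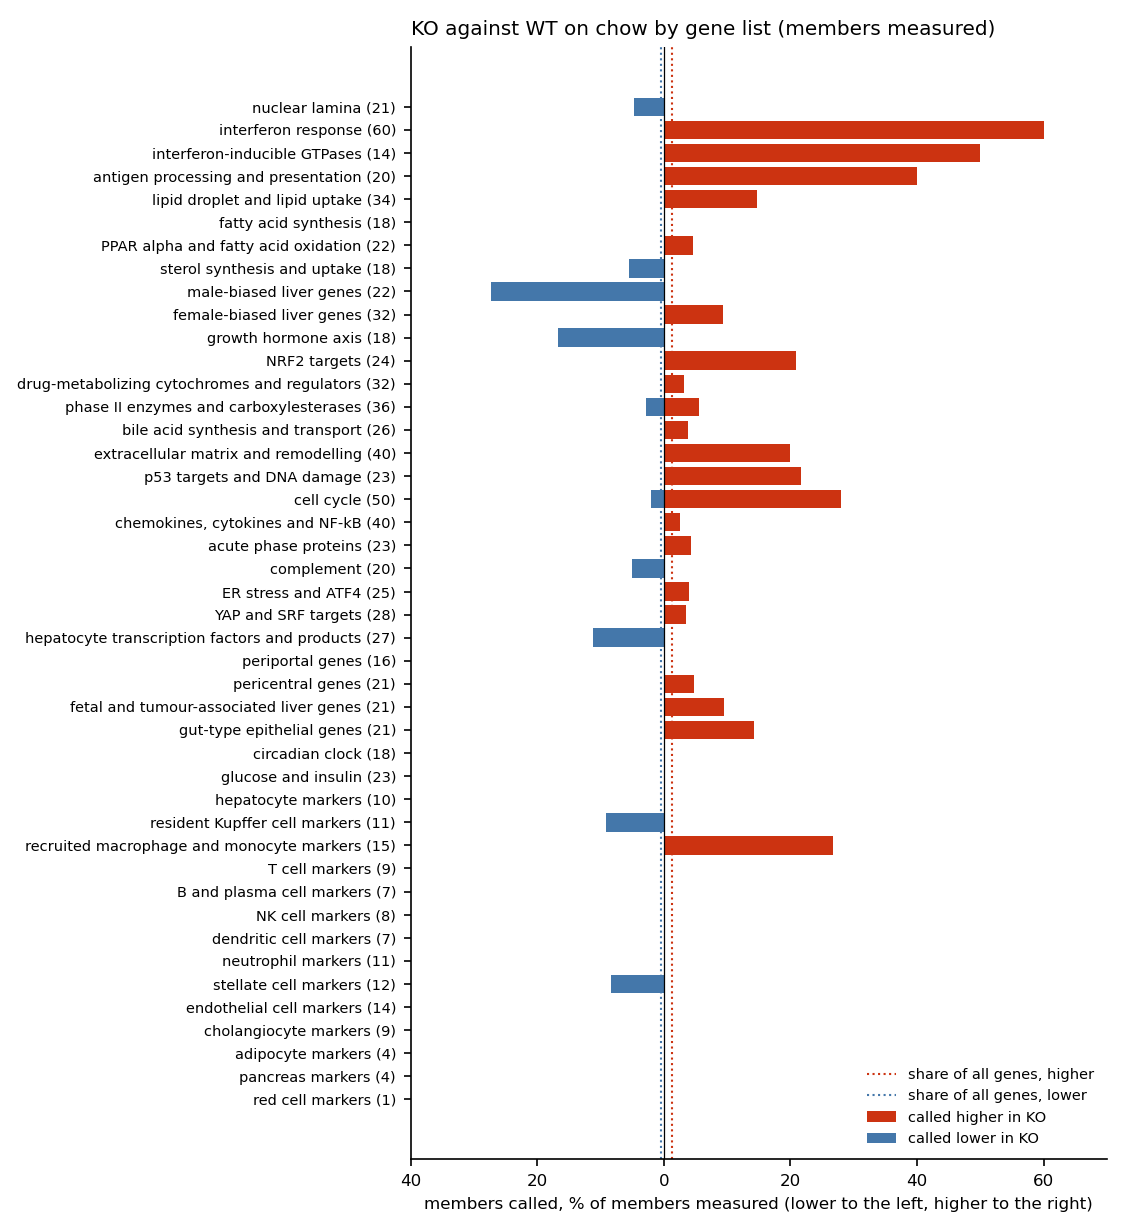
Share of the measured members of each gene list that were called higher (right) or lower (left) in KO against WT livers on chow; dotted lines are the shares over all 22180 genes, 1.24% higher and 0.410% lower. The interferon response, with 36 of 60 members called higher, stands out to the right.

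HET livers carry 1 floxed copy. Their change is taken against the same WT arrays, so it is given side by side with the KO change. No gene was called between HET and WT livers on chow (0.00% of genes; 954 at an unadjusted p under 0.05; smallest adjusted p 0.0769), while a filter on dim genes or a second quantile normalization called 1. The 276 genes that rose in KO livers had a median HET minus WT change of 0.18, and the 91 that fell a median of -0.30. In 268 of the 276 rises all 3 KO livers lay above all 5 WT and HET livers, and in 79 of the 91 falls all 3 lay below them. Over all genes the shares were 6.27% and 4.98%. These are not a like background, because every called gene already had KO apart from both WT arrays. Only 15.1% of all genes had KO above both WT arrays and 13.5% below, so part of the contrast was set by the call itself. Spsb3, an adaptor of ubiquitin ligases, was an exception chosen after its values were seen. It read 3.80 and 3.78 in WT, 4.61, 4.69 and 4.59 in KO and 4.86, 4.68 and 4.66 in HET livers, so both groups with floxed copies lay above WT (KO minus WT 0.84 ± 0.12, adjusted p = 0.00296).

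The KO and HET livers on HFD share no array with the chow comparison. They differ from it in diet, in the control genotype and in the size of the age gap. KO mice were the older group in both comparisons, so age and genotype cannot be told apart on HFD either. Between KO and HET livers on HFD 1677 genes (7.56%) were called, 1221 higher in KO (5.50%) and 456 lower (2.06%). Centring turned that balance, to 915 higher and 3543 lower, and a second quantile normalization gave 954 and 713. Of the 276 genes that rose on chow, 271 (98.2%) also had a change above 0 on HFD, against 45.9% of all genes, and 224 (81.2%) were called higher there. These 224 were 18.3% of the HFD rises. Of the 91 that fell on chow, 75 (82.4%) had a change below 0 on HFD, against 54.1% of all genes, and 41 (45.1%) were called lower, which is 8.99% of the HFD falls. The median change of the chow rises was 1.43 on chow and 1.3 on HFD, and that of the falls -1.01 and -0.56. With each pair of groups fitted on its own arrays, so that no estimate was shared, 131 of 134 rises (97.8%) and 21 of 28 falls (75.0%) kept their sign. After centring, 207 of 213 rises (97.2%) and 137 of 147 falls (93.2%) did, when 20.2% and 79.8% of all genes had those signs on HFD.

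Group by group, the interferon changes were smaller on HFD and the lipid and redox changes larger, as values only. The median of the 60 interferon response genes was 1.2 on chow and 0.80 on HFD, with 36 rises in each and 1 fall on HFD; Isg15 changed by 2.97 and 1.51 and Ifit1 by 3.53 and 2.16. Irf9, which rose by 1.24 on chow, changed by 0.23 on HFD (adjusted p = 0.373). Cidea changed by 5.89 on chow and 6.9 on HFD and Cidec by 3.87 and 5.06. Of 24 NRF2 genes 5 rose on chow and 17 on HFD, and Nqo1 changed by 1.39 and 3.38. Male-biased falls numbered 6 on chow and 12 on HFD, where 2 male-biased genes rose, and Hsd3b5 changed by -5.85 and -6.46. A test of the difference between both KO effects called none of these genes.

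**Figure D5:**
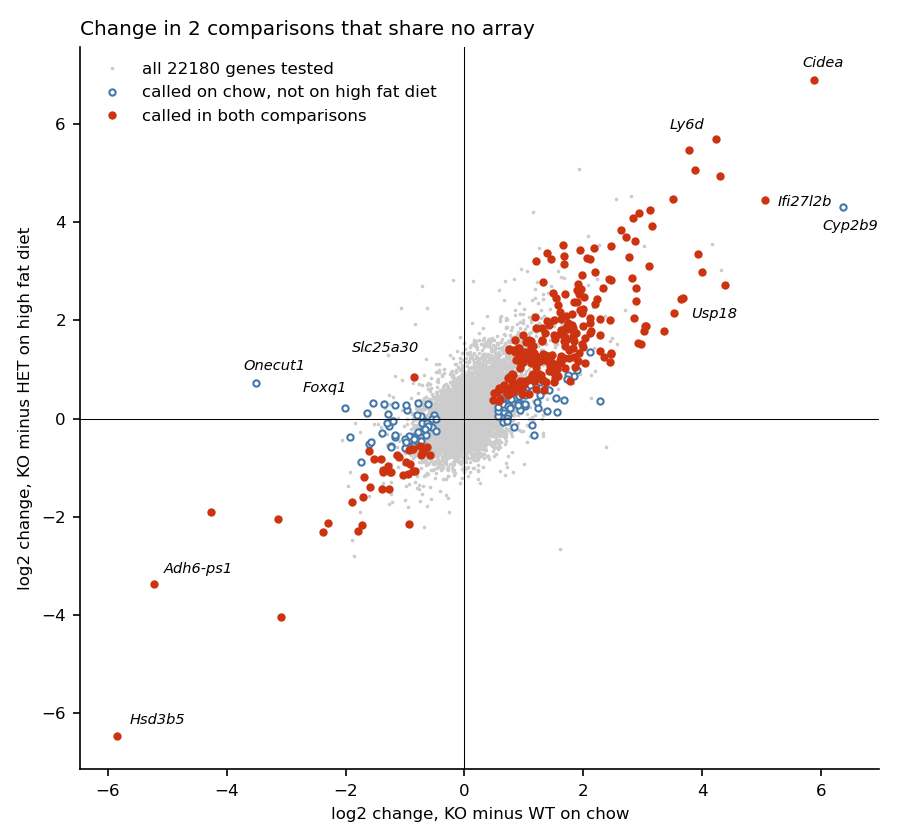
Log2 change KO minus WT on chow (horizontal) against KO minus HET on high fat diet (vertical) for all 22180 genes; filled points were called in both comparisons and open points on chow only. Most called genes lie in the quadrants of equal sign; Onecut1 (-3.51 and 0.73) and Slc25a30 (-0.85 and 0.84) do not.

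That test, the KO effect on chow less the KO effect on HFD, called 1 gene (0.00451%). Slc25a30, a mitochondrial carrier, read 7.73 and 7.85 in WT and 6.74, 6.96 and 7.13 in KO livers on chow, a fall (-0.85 ± 0.15, adjusted p = 0.0134). On HFD it read 7.35, 7.23 and 7.38 in HET and 8.19, 8.39 and 7.89 in KO livers, a rise (0.84 ± 0.14, adjusted p = 0.00280). The effects ran in opposite directions and differed by -1.69 ± 0.21 (adjusted p = 0.0447). This call of the difference was kept in 3 of 14 fits without 1 array and lost in 11, N1 and G1 among those left out (0.0587 to 0.179). It was also lost with only the groups compared (0.0540), after centring (0.0572) and with the array letter as a block (0.0648). The fall on chow itself was lost without G1 (0.0585) or N1 (0.144). Onecut1 fell on chow and changed by 0.73 on HFD (adjusted p = 0.333), and the difference just missed (adjusted p = 0.0518). Foxq1 fell on chow and changed by 0.21 on HFD (adjusted p = 0.766), with the difference not called.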

How the data were processed

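Liver RNA of 14 mice was measured on 14 arrays, 1 mouse each. The authors deposited log2 values made with RMA, which corrects background, normalizes quantiles and summarizes probes; the submitters' processing notes name RMA and limma with no version. Whether batches were adjusted for is not stated there. No detection p comes with them, so the precision is limited by the number of arrays, 2 WT and 3 KO.

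Of 41345 probe sets, 23521 had exactly 1 gene symbol, 1814 several and 16010 none. For the 1082 genes with several such probe sets the one with the highest mean over the 14 arrays was used, giving 22180 genes, and no filter on level was applied. limma 3.58.1 in R 4.3.3 fitted 1 mean per group (5 groups) to all 14 arrays (9 residual and 3.83 prior degrees of freedom), with 4 contrasts: KO minus WT on chow, HET minus WT on chow, KO minus HET on HFD, and the first less the third. Benjamini-Hochberg adjustment ran over all genes within a contrast. In data simulated on these arrays (22180 genes), 50 genes were given each log2 change. For KO minus WT 72% were called at a change of 1, 92% at 2 and 100% at 3 or 4. The noise was drawn independently for each gene and array, so differences in quality between the arrays were not part of it. Labels call the animals separate mice, so p-values measure the spread between mice.

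Named genes are Lmna, the 15 largest rises and 15 largest falls among called genes with groups that do not overlap (predicted genes, small RNAs and receptor segments left out), and members of 30 pathway lists and 14 marker lists (915 of 1002 entries measured). The members, lists and contrasts were chosen with earlier results of these data known. Lists are described by counts and medians without a test. Alternatives were array weights, a trended and robust prior, a filter on dim genes, probe sets averaged per gene or tested singly, a fit of the compared groups alone, centring, repeated quantile normalization, array-name letter as a random block, minimum fold 1.5, adjusted p below 0.01, and each array left out. Promoters came from the RefSeq table for GRCm38.p6, matched by symbol (16990 of 22180 genes). The probe sets that carry no or several symbols were tested only as an alternative.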

Additional observations from a re-analysis of the deposited data

Results flagged for a closer look

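The change in KO livers differed between the comparisons on chow and on HFD for Slc25a30. The comparisons differ in diet, control genotype and age gap, which cannot be told apart here. HET minus WT on chow was -0.45. Slc25a30 fell in KO against WT livers on chow and rose in KO against HET livers on HFD, and the test of the difference itself gave -1.69 ± 0.21 (limma adjusted p = 0.0447). It was the 1 gene of 22180 called by that test. On chow all 3 KO values (6.74, 6.96 and 7.13) lay below WT, and on HFD all 3 (8.19, 8.39 and 7.89) lay above HET. The call was kept in 3 of 14 fits without 1 array (P1, I1 or C4 left out) and lost in the other 11 (0.0587 to 0.179).

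Some probe sets outside the gene-level comparison were also called, at a lower share than the rest. Of the 17824 probe sets with no gene symbol or with several, 51 (0.286%) were called in KO against WT livers on chow when all probe sets were tested together, 33 higher and 18 lower. Over all 41345 probe sets of that fit 260 were called.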

How the results depend on the processing

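Of 137 called genes that are named or list members, 53 kept their call in every fit without 1 array and 43 under every alternative; none reversed its direction. Of these 137, 77 kept it without G1, 65 without N1, 125 without H1, 98 without H2 and 90 without I1. Leaving out a WT array leaves 1, whose spread is taken from the other groups. The 367 calls of KO minus WT became 162 with only the groups compared, 69 with a fold minimum of 1.5 and 151 at an adjusted p under 0.01, and 154 to 411 without 1 array. The 1677 calls of KO minus HET on HFD became 4458 after centring (915 higher, 3543 lower), which moved all changes by -0.22, 196 with the fold minimum and 705 at the stricter p, and 971 (without the KO array C4) to 1788 without 1 array. HET minus WT had 0 calls, 1 with the filter on dim genes, 1 after a second quantile normalization and 0 to 10 without 1 array. The difference of both KO effects had 1 call; there were 3 with array weights, 7 with a trended prior, 4 with the dim filter, 4 with the mean of probe sets, 5 after quantile normalization, 0 with only the groups compared, after centring, with the letter block, with the fold minimum, over all probe sets and at the stricter p, and 0 to 14 without 1 array. The cause of these shifts was not tested. No paired analysis was possible because replicate numbers follow accession order and pair no mice.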

Other observations

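Of the 276 genes that rose, 168 belong to none of the lists, and 73 of the 91 that fell. The following were chosen after their values were seen. Further genes known to be induced by interferon were among the rises. Ddx60, a helicase that acts with the RNA sensors, read 4.16 and 4.21 in WT and 7.22, 7.31 and 7.07 in KO livers (3.02 ± 0.27, limma adjusted p = 8.97e-05). Rnf213, a large ubiquitin ligase, rose by 1.78 ± 0.17 (adjusted p = 9.97e-05) and Apol9a, an apolipoprotein L, by 2.47 ± 0.29 (adjusted p = 0.000627). Trim12a, a TRIM ligase, rose by 2.29 ± 0.26 (adjusted p = 0.000518) and changed by 0.36 on HFD (adjusted p = 0.416).

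Rragd, a Rag GTPase that brings mTORC1 to lysosomes, read 4.73 and 4.36 in WT and 6.74, 7.21 and 8.26 in KO livers (2.86 ± 0.41, adjusted p = 0.00286), and changed by 3.61 on HFD. Sprr1a, a protein of the cornified envelope of skin, read 2.15 and 1.68 in WT and 4.16, 4.59 and 5.79 in KO livers (2.93 ± 0.35, adjusted p = 0.000799). Lgals1, galectin 1, rose by 2.47 ± 0.29 (adjusted p = 0.000632), the melatonin receptor Mtnr1a by 2.27 ± 0.24 (adjusted p = 0.000296) and the thymocyte protein Themis by 1.95 ± 0.23 (adjusted p = 0.000689), while no marker of the T cell list was called. All of these had KO values above every WT and HET chow value, and each call held without any 1 array. Among the falls, the homeobox factor Hhex read 8.02 and 8.56 in WT and 7.02, 6.60 and 6.65 in KO livers (-1.53 ± 0.23, adjusted p = 0.00422; 0.0822 without N1), and changed by 0.32 on HFD (adjusted p = 0.437).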
